A study of Mus musculus with 8 samples.

Results

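Skeletal muscle genes were followed in white adipose tissue of 5-week-old mice of a mixed 129 × C57BL/6 background, all on regular chow. The set holds 36 genes that encode parts of the sarcomere, the calcium-handling machinery of the muscle fibre, and muscle proteins for energy and oxygen supply. Members were found by matching the accession of each array probe to a gene symbol, and all 36 had at least 1 probe. Of these, 34 were bright enough to test, among 25133 gene names tested in all. The 8 samples were 4 of wild-type (WT) genotype and 4 of the genotype Ad/NICD, with overexpression of the active, intracellular part of the Notch1 receptor. Each of 4 two-colour arrays carried the WT and the Ad/NICD sample of the same replicate number. The sources used here do not name the promoter of the transgene, the fat depot or the sex of the animals. In bulk tissue, fewer cells of a type and less RNA per cell cannot be told apart.

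Skeletal muscle contracts when thick filaments of myosin pull on thin filaments of actin inside the sarcomere, whose ends are anchored at the Z-disc. An action potential opens calcium release channels of the sarcoplasmic reticulum, calcium binds troponin C on the thin filament, and a calcium pump then returns it to the store. Fast and slow fibres build this machine from different genes of the same families, so a fast troponin or myosin has a slow partner. White adipose tissue is not a contractile tissue, and its fat cells are not known for making sarcomeres.

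Ratios are red over green. The WT columns of the authors' value table held the green channel and the Ad/NICD columns the red one, so a ratio is likely Ad/NICD over WT. The dye tag on each sample gives the reverse assignment. If the tags were right, every ratio would change sign and the WT and Ad/NICD levels would change places. No array had its dyes swapped, so dye and genotype cannot be told apart. Heyl, a target gene of Notch signalling, had a log2 ratio of 2.87 ± 0.17 (SE, n = 4 arrays; adjusted p = 0.0399, limma). Notch1 itself had a ratio of 0.36 ± 0.24 (adjusted p = 0.543, limma), and whether its probe lies in the overexpressed part is not known from the files.

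Some samples stood apart from their labels or from the rest. WT replicates 1 and 3 were far more alike than any other samples. Over 10167 bright genes their log2 levels differed with a spread of 0.102 (median absolute deviation scaled to an SD), against 0.195 to 0.421 in the other 27 pairs of samples, and 15 genes differed by more than 2-fold, against 110 to 662. Repeat spots of 1 probe on 1 array differ with a spread of 0.0804. The labels call all 4 WT samples biological replicates, and whether these 2 are separate animals cannot be told from the files, so counts were also made with their mean as 1 sample. Among the few genes that set them apart, Frmd5 was at 14.67 in WT 1 and 6.13 in WT 3. Both samples of replicate 4 lacked the signal of Xist, a transcript of the inactive X chromosome, at log2 levels of 6.12 and 5.87 against 10.15 to 10.45 in the other 6 samples. Xist was the 1 gene tested of 5 sex-linked genes listed. Ddx3y, Eif2s3y, Kdm5d and Uty did not pass the filter, which needs signal on 3 or more arrays and so drops a gene with signal on array 4 alone. The 2 samples of replicate 4 had summed levels of 5 mammary epithelium markers of 451 and 474, against 10125 to 26618 in the rest. Replicate 4 thus stood apart in genes outside the muscle set too, and values without it are given beside the tested members whose mean it moved by more than 1.5-fold.

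Most of the muscle genes were brightest in WT replicate 4 and had a mean ratio below 0. WT replicate 2 was the next brightest sample for 18 of 34 members, and Ad/NICD replicate 4 for 9, where WT replicate 4 came first. Summed over the 34 tested members, the level was 10923, 26487, 10830 and 243988 in WT replicates 1 to 4 and 9450, 9618, 8295 and 21526 in Ad/NICD replicates 1 to 4. The WT replicate 4 sum was 9.21 times the next WT sum, and the highest Ad/NICD sum was that of replicate 4. WT replicate 4 was the highest of the 8 samples for 28 of 34 members, or 82.4%, against 14.7% of all gene names. It stood more than 4-fold above the next WT sample for 17 members, which are 17 of the 50 gene names on the whole array that did so (50% of the members against 0.199% of all names). Ad/NICD replicate 4 was the highest of its group for 26 members (76.5%, against 32.6% of all names). Among the other WT samples, replicate 2 was the highest for 29 members (85.3%, against 40.5%).

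**Figure D1:**
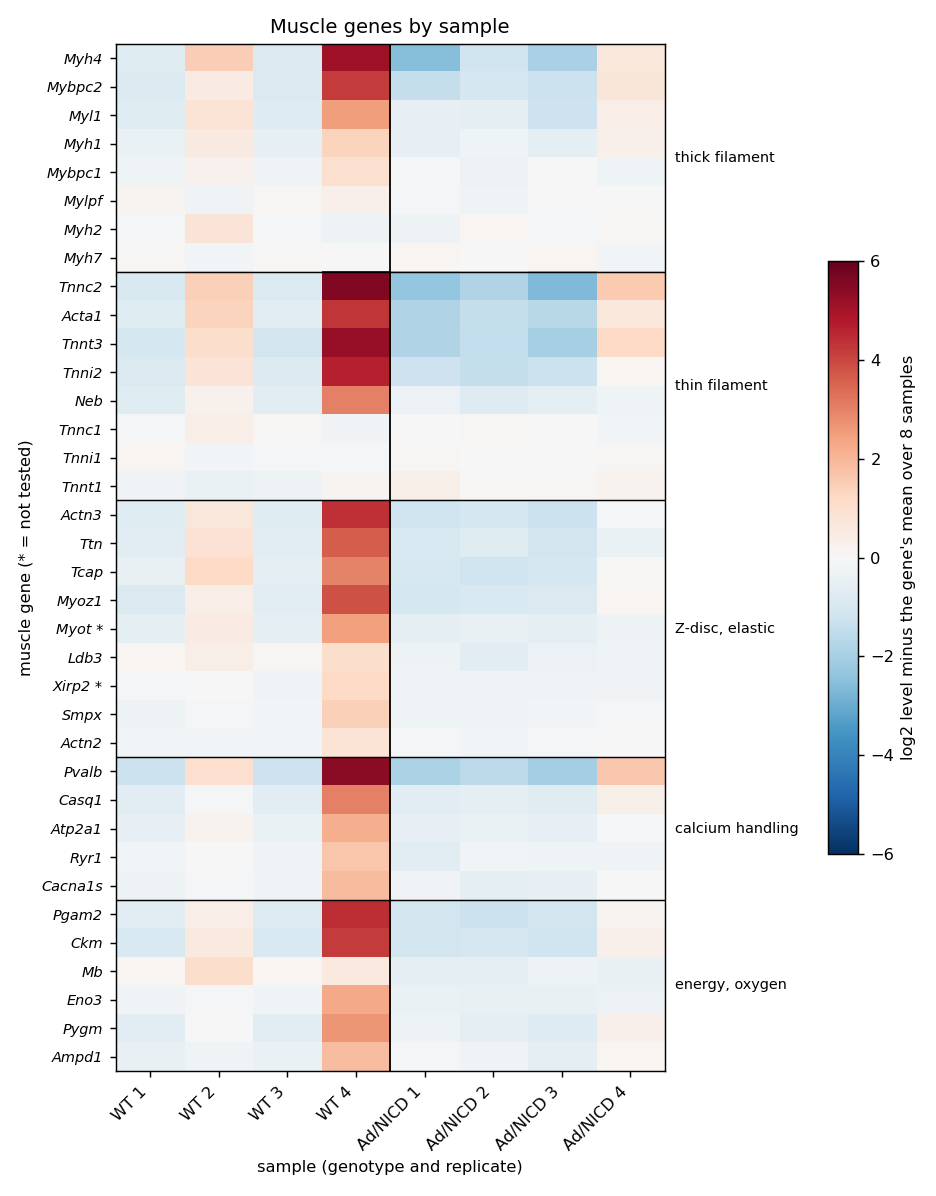
Log2 level of each of the 36 muscle genes in each of the 8 samples (columns), as the difference from that gene's mean over the 8 samples (colour), with genes grouped by role and an asterisk for the 2 not tested. WT 4 was the highest sample for 28 of the 34 tested genes, while the pale rows of the slow genes Myh7, Tnnc1, Tnni1 and Tnnt1 and of the fast gene Mylpf varied little.

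None of the 34 members passed the test, which called 12 of 25133 gene names (0.0477%) at an adjusted p below 0.05 (limma, Benjamini-Hochberg over all names). The smallest adjusted p of a member was 0.131, for Tnnc2. Most members shared a direction: 31 of 34 members had a mean ratio below 0, against 12980 of all 25133 gene names. Lower in Ad/NICD on 4 of 4 arrays were 21 members (61.8%), against 13.3% of all gene names. A mean ratio of at least 2-fold lower was found for 13 members (38.2%, against 0.645%). At an unadjusted p below 0.05, 11 members were lower (32.4%, against 8.98%) and 1 was higher (2.94%, against 6.25%). Every Ad/NICD sample lay below every WT sample for 3 members, Mb, Eno3 and Ldb3 (8.82%, against 5.6%), a share not far from that of all gene names. For Eno3 the lowest WT sample was at 11.16 and the highest Ad/NICD sample at 11.08.

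The size of the difference depended on the array. On the arrays of replicates 1 to 4, the median log2 ratio of the members was -0.19, -0.93, -0.21 and -2.30, while the median of all gene names stayed between -0.024 and 0.0064. Some members were near background in both samples of arrays 1 and 3, which limits the ratio there. On array 1, Ckm was at 6.26 in WT and 6.06 in Ad/NICD, and Casq1 at 6.26 and 6.20. Medians of probes not well above background were 5.92 to 5.96. With processed signals the member median over arrays was -1.20. At least 2-fold lower were 3 members on array 1 (8.82%, against 1.38% of all names), 17 on array 2 (50%, against 2.61%), 3 on array 3 (8.82%, against 1.05%) and 27 on array 4 (79.4%, against 0.772%). The mean over arrays gave a median of -0.82 for the members. Without replicate 4 the median was -0.30, and 29 of 34 members were below 0, while the median of all gene names was -0.012. Among replicates 1 to 3, every Ad/NICD sample lay below every WT sample for 15 of 34 members (44.1%, against 15.1% of all gene names). Counting WT replicates 1 and 3 once, with channels fitted separately, gave a median of -1.05 and again no member past the threshold (0.0438% of all gene names). The spread among WT samples was above that among Ad/NICD samples for 33 of 34 members (97.1%, against 51.3%).

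**Figure D2:**
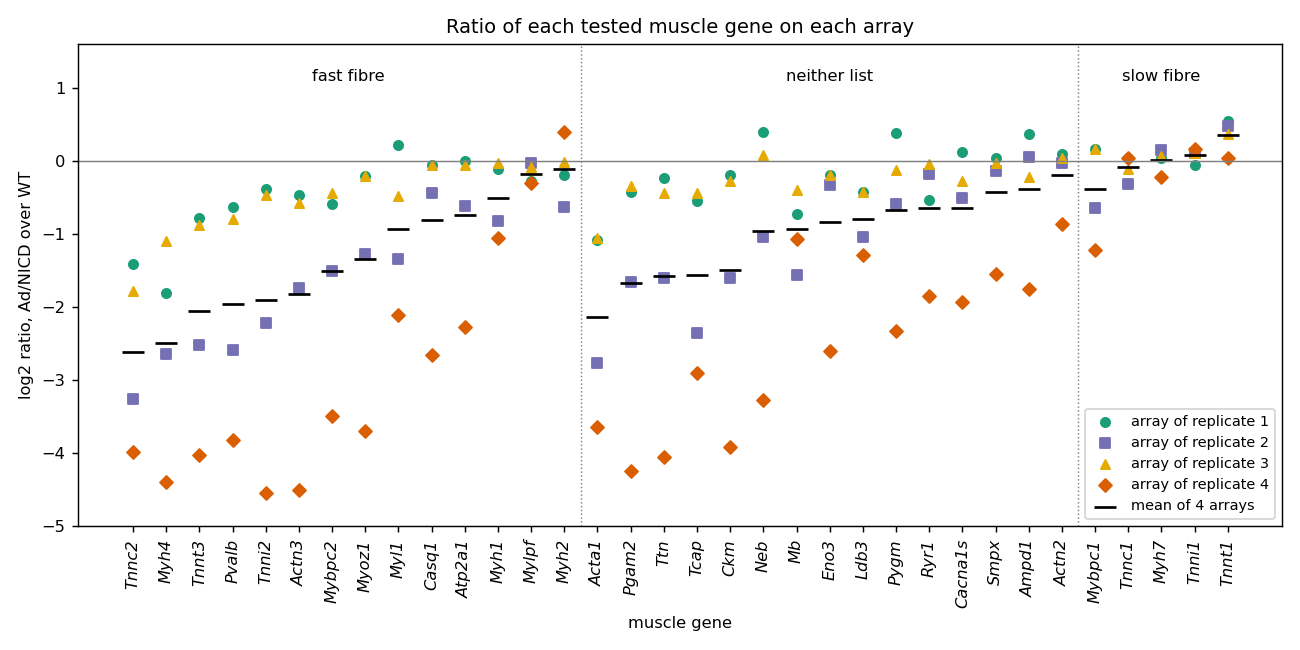
Log2 ratio of Ad/NICD over WT (vertical axis) for each of the 34 tested muscle genes (horizontal axis) on each of 4 arrays (symbols), with the mean as a bar and genes split into fast fibre, slow fibre and neither list. Array 4 gave the lowest ratio for 30 of 34 genes, and the 5 slow fibre genes had means between -0.38 and 0.36.

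In the thin filament, the fast troponins and skeletal actin had the largest ratios. Tnnc2, the calcium-binding troponin C of fast fibres, had log2 levels of 8.79, 11.14, 8.82 and 15.23 in WT replicates 1 to 4 and of 7.39, 7.88, 7.04 and 11.24 in Ad/NICD replicates 1 to 4. Each Ad/NICD sample was below the WT sample of its own array, and the groups overlapped only because Ad/NICD 4 lay above WT 1, 2 and 3. The log2 ratio was -2.61 ± 0.46 (SE, n = 4 arrays), or 6.1-fold lower, with an adjusted p of 0.131. Without replicate 4 it was -2.15. Acta1, the skeletal muscle form of alpha-actin, had levels of 8.32, 10.37, 8.41 and 13.34 in WT and of 7.23, 7.61, 7.36 and 9.70 in Ad/NICD. Here too only Ad/NICD 4 reached into the WT range, above WT 1 and WT 3. The ratio was -2.14 ± 0.49 (adjusted p = 0.168), or 4.4-fold lower, and -1.63 without replicate 4.

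Tnnt3, the fast troponin T that ties the troponin complex to tropomyosin, had levels of 7.61, 9.69, 7.53 and 13.85 in WT and of 6.83, 7.17, 6.66 and 9.83 in Ad/NICD. Its ratio was -2.05 ± 0.58 (adjusted p = 0.22), or -1.39 without replicate 4, and Ad/NICD 4 was the second highest sample after WT 4. Tnni2, the inhibitory fast troponin I, had levels of 9.82, 11.47, 9.85 and 15.35 in WT and of 9.44, 9.25, 9.38 and 10.81 in Ad/NICD. The ratio ranged from -0.39 on array 1 to -4.54 on array 4, a 23.2-fold difference on that array, and its mean was -1.90 ± 0.74 (adjusted p = 0.321), or -1.03 without replicate 4. Tnni2 and Tnnt3 are neighbours on chromosome 7, at chr7:142441816-142444410 and chr7:142498771-142516213 of GRCm38.p6, so they share a region as well as a role. Neb, which encodes nebulin, the ruler protein along the thin filament, had a ratio of -0.95 ± 0.63 (adjusted p = 0.534). That value rested on arrays 2 and 4, at -1.03 and -3.27, and was 0.40 and 0.086 on arrays 1 and 3, so that it was -0.18 without replicate 4.

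The slow partners in the thin filament showed no such pattern. Tnnc1, the troponin C of slow and cardiac fibres, had levels of 6.36, 6.84, 6.51 and 6.25 in WT and of 6.40, 6.52, 6.40 and 6.29 in Ad/NICD. WT 4, the highest sample for Tnnc2, was the lowest of the 8 for Tnnc1, and the groups overlapped. Tnni1, the slow troponin I, lay between 5.97 and 6.23 in WT, at 6.23, 5.97, 6.03 and 6.04, and at 6.18, 6.08, 6.14 and 6.20 in Ad/NICD. These levels are near those of probes not well above background, whose medians lay between 5.92 and 5.96, and Tnni1 was well above background in WT on 1 of 4 arrays. A level that low leaves little room for a lower value to show. Tnnt1, the slow troponin T, was brighter, at 8.25, 8.04, 8.14 and 8.63 in WT and at 8.80, 8.52, 8.52 and 8.67 in Ad/NICD. It was higher in Ad/NICD on 4 of 4 arrays, with a ratio of 0.36 ± 0.10 (adjusted p = 0.217), although WT 4 lay within the Ad/NICD range. A second Tnnt1 probe gave 0.096. Tnnc1 had a ratio of -0.085 ± 0.084 and Tnni1 one of 0.081 ± 0.065.

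Promoter windows from RefSeq (GRCm38.p6) reach from 250 bases before to 50 bases after the transcript start and were found for 28 of the 36 members, as 34 windows of 300 bases. They are shown for Acta1 and Myh4, members with some of the largest ratios, and for Tnnc2 and Tnnc1, the fast and slow partners whose ratios differed most. Capitals mark letters matching an E-box (CANNTG, which myogenic factors such as MyoD bind), a CArG box (bound by serum response factor), a MEF2 box or an MCAT element (CATTCC, bound by TEAD factors), searched on both strands. The windows are chr8:123894726-123895025 on the minus strand for Acta1, chr11:67237562-67237861 on the plus strand for Myh4, chr2:164779685-164779984 on the minus strand for Tnnc2 and chr14:31208062-31208361 on the plus strand for Tnnc1.
Acta1: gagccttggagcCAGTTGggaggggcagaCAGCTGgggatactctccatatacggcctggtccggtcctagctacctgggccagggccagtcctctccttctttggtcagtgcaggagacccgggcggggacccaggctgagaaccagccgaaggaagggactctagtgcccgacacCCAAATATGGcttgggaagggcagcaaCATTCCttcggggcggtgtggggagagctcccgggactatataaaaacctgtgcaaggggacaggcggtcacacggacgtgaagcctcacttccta
Myh4: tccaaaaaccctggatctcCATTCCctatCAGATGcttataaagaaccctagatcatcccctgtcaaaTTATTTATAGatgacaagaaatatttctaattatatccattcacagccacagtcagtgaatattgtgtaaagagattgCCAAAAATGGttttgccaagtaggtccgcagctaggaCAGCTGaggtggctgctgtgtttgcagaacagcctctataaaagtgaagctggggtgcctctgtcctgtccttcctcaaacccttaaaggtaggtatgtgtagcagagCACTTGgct
Tnnc2: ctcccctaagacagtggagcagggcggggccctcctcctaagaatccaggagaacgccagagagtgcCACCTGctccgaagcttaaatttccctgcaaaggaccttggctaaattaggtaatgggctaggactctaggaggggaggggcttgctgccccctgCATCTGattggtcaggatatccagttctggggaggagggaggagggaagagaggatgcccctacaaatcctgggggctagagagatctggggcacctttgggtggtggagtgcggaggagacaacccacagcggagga
Tnnc1: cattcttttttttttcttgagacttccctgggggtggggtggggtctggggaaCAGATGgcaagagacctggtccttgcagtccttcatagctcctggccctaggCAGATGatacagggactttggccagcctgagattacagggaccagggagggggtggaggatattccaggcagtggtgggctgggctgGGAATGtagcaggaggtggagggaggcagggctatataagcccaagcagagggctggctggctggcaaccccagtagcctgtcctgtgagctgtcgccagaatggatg
The Acta1 window held a CArG box at -73 and an MCAT element at -46 from the start, with E-boxes at -238 and -221. Myh4 held all 4 motifs, with the MEF2 box at -182, the CArG box at -104 and E-boxes at -221, -67 and 42. Tnnc2 and Tnnc1 each held 2 E-boxes, and Tnnc1 also an MCAT element at -58. Over the member windows, 4 of 34 (11.8%) held a CArG box against 1.63% of all 32851 windows of the same length, and 6 (17.6%) held a MEF2 box against 3.19%. Windows of 1 gene can overlap, and both Ldb3 windows held the same CArG box. By gene, 3 of 28 members had a CArG box and 6 a MEF2 box. An E-box of any kind was in 79.4% of member windows and 72.3% of all windows, its form CAGCTG in 47.1% and 16.3%, and CATTCC in 32.4% and 14.7%. CAGCTG is 1 of the E-boxes, so these 2 shares overlap. A match describes these letters only, and a window without one says nothing about the factor.

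In the thick filament, the ratios ran from large for the fast myosin heavy chain Myh4 to near 0 for the slow one. Myh4, the heavy chain of the fastest fibres, had levels of 9.77, 11.96, 9.65 and 15.58 in WT and of 7.97, 9.32, 8.55 and 11.18 in Ad/NICD. All 4 Ad/NICD samples were below their own WT partner, and only Ad/NICD 4 exceeded WT 1 and WT 3. The ratio was -2.48 ± 0.54 (adjusted p = 0.16), or 5.59-fold lower, and -1.85 without replicate 4. Myh8, the perinatal heavy chain and no member, gave nearly the same values with a ratio of -2.49 ± 0.55, or -1.83 without replicate 4. The 2 genes have closely similar sequences, so signal shared between their probes cannot be separated here. Myh4, Myh1 and Myh2 lie side by side on chromosome 11, between 67171027 and 67260447.

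Mybpc2, the fast form of myosin-binding protein C, had levels of 7.09, 8.40, 7.06 and 12.13 in WT and of 6.51, 6.89, 6.62 and 8.64 in Ad/NICD, a ratio of -1.51 ± 0.53 (adjusted p = 0.287), or -0.84 without replicate 4. Ad/NICD 4 was the second highest sample, and the other 3 Ad/NICD samples lay below every WT sample. Its slow partner Mybpc1 had 6.72, 7.26, 6.78 and 7.92 in WT and 6.89, 6.62, 6.95 and 6.71 in Ad/NICD. Unlike the other slow genes, Mybpc1 was highest in WT 4 and WT 2, and its ratio was -1.21 on array 4 and 0.17 on arrays 1 and 3. Myh7, the slow heavy chain, varied little, at 6.80, 6.58, 6.81 and 6.79 in WT and 6.85, 6.73, 6.87 and 6.57 in Ad/NICD. Its ratio was 0.0071 ± 0.082, with the groups overlapping.

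The remaining thick filament members were fast genes with smaller ratios. The light chain Myl1 had a ratio of -0.93 ± 0.39, and the heavy chain Myh1, of an intermediate fast fibre, one of -0.50 ± 0.20. Mylpf, the other fast light chain, had -0.17 ± 0.075, with all 8 samples between 6.50 and 7.06. A second Mylpf probe was too dim to test and gave -0.15, with -0.65 on array 4. How well either probe reads the Mylpf transcript is not known. Myh2, the heavy chain of oxidative fast fibres, had -0.11 ± 0.17, and it was the 1 fast member that WT 4 did not lead: its highest sample was WT 2 at 7.28, while WT 4 was at 6.21, the lowest of the 8.

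At the Z-disc, the fast alpha-actinin and titin had the largest ratios. Actn3, the alpha-actinin of fast fibres, had levels of 6.84, 8.22, 6.85 and 11.95 in WT and of 6.38, 6.48, 6.27 and 7.44 in Ad/NICD. The ratio was -1.82 ± 0.71 (adjusted p = 0.324), of which array 4 gave -4.51, a 22.7-fold difference. Without replicate 4 it was -0.93. Ttn, the giant elastic protein titin, had 6.90, 8.48, 6.95 and 11.24 in WT and 6.67, 6.88, 6.51 and 7.19 in Ad/NICD, a ratio of -1.58 ± 0.66 (adjusted p = 0.354), or -0.75 without replicate 4. The other Ttn probes were too dim to test and gave -0.65, -0.24 and -0.15. For both genes the order was WT 4, WT 2, then Ad/NICD 4, with Ad/NICD 1 to 3 below every WT sample.

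Tcap, the titin cap protein, had a ratio of -1.56 ± 0.48, and Myoz1, a fast fibre calcineurin-binding protein of the Z-disc, one of -1.34 ± 0.62. The Myoz1 ratio was -3.69 on array 4 and -0.56 without replicate 4, and that of Tcap was -1.11 without it. Ldb3 had -0.79 ± 0.18 and its groups did not overlap, with the lowest WT sample at 7.88 and the highest Ad/NICD sample at 7.55. A second Ldb3 probe gave a mean of -0.29, but 0.61 and 0.13 on arrays 1 and 3, and 0.16 without replicate 4. Smpx, a small muscle protein, had -0.42 ± 0.29, and Actn2, the alpha-actinin shared by all striated fibres, had -0.19 ± 0.18. For Smpx and Actn2 the difference lay on array 4, at -1.55 and -0.86, and the other arrays were between -0.13 and 0.10. Myot and Xirp2 could not be tested, since they were above background in 2 of 4 WT samples and in no Ad/NICD sample. Their mean ratios were -0.95 and -0.47, or -0.35 and -0.15 without replicate 4, and array 4 gave -2.75 and -1.40. With no Ad/NICD level above background, the size of these differences is not known.

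Among the 5 calcium-handling members, the fast fibre calcium buffer parvalbumin stood out. Pvalb had levels of 7.86, 10.16, 7.89 and 14.55 in WT and of 7.22, 7.57, 7.10 and 10.73 in Ad/NICD. Ad/NICD 4 was the second highest sample, and Ad/NICD 1 to 3 lay below every WT sample. The ratio was -1.96 ± 0.58 (adjusted p = 0.23), and -1.34 without replicate 4, while a second probe gave a mean of -2.32. The other 4 members had ratios between -0.25 and -0.19 without replicate 4. Casq1, the calcium store protein calsequestrin of fast fibres, had 6.26, 6.79, 6.24 and 9.93 in WT and 6.20, 6.34, 6.18 and 7.27 in Ad/NICD. Atp2a1, the calcium pump SERCA1 of fast fibres, had 6.67, 7.41, 6.76 and 9.36 in WT and 6.67, 6.80, 6.71 and 7.09 in Ad/NICD. Both were highest in WT 4, with overlapping groups, and their ratios were -0.80 ± 0.47 and -0.73 ± 0.40.

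Ryr1, the calcium release channel, had levels of 7.38, 7.57, 7.35 and 9.21 in WT and of 6.85, 7.39, 7.31 and 7.36 in Ad/NICD. Cacna1s, the voltage sensor that opens it, had 8.63, 8.88, 8.72 and 10.87 in WT and 8.75, 8.37, 8.44 and 8.94 in Ad/NICD. In each gene WT 4 stood alone at the top, and the other samples of both groups overlapped. The ratios were -0.65 ± 0.32 and -0.64 ± 0.34, and without replicate 4 they were -0.25 and -0.22. A second Cacna1s probe gave -0.18. None of the 5 had an adjusted p below 0.23.

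In energy and oxygen supply, the muscle forms of 2 enzymes led. Pgam2, muscle phosphoglycerate mutase, had levels of 7.23, 8.30, 7.15 and 12.33 in WT and of 6.81, 6.64, 6.81 and 8.09 in Ad/NICD, and Ckm, muscle creatine kinase, had 6.26, 7.73, 6.26 and 11.35 against 6.06, 6.14, 5.98 and 7.45. WT 4 and WT 2 were the 2 highest samples for both genes, followed by Ad/NICD 4. The ratios were -1.67 ± 0.69 and -1.49 ± 0.66 (adjusted p = 0.347 and 0.372), and -0.81 and -0.69 without replicate 4. Mb, the oxygen store myoglobin, was different: its levels were 7.42, 8.32, 7.38 and 7.89 in WT and 6.69, 6.77, 6.98 and 6.82 in Ad/NICD, so the groups did not overlap and WT 2 was highest. The Mb ratio of -0.94 ± 0.19 (adjusted p = 0.155) was -0.89 without replicate 4. Eno3, the muscle enolase, had -0.83 ± 0.45, or -0.24 without replicate 4. Pygm, muscle glycogen phosphorylase, had -0.67 ± 0.45, or -0.11 without replicate 4, and Ampd1, the muscle AMP deaminase, -0.38 ± 0.36, or 0.071 without it, and the groups of both genes overlapped.

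Fast and slow fibre genes were then set side by side. All 14 fast members had a mean ratio below 0, against 12980 of all 25133 gene names, with a median of -1.43. Lower on 4 of 4 arrays were 12 of them, against 13.3% of all gene names. On the arrays of replicates 1 to 4 the fast median was -0.33, -1.43, -0.46 and -3.59, and without replicate 4 the median of the means was -0.70. The 5 slow members had a median of 0.0071, with 2 below 0 and 3 above, and array medians of 0.042, 0.11, 0.10 and 0.039. With each array centred on its median in place of loess, a setting that moved the median of all gene names to -0.32, the slow median was -0.12 and the fast median -1.55. Summed levels of the fast members were 5441, 18379, 5372 and 199524 in WT and 4375, 4873, 3525 and 14948 in Ad/NICD. Those of the slow members were 679, 690, 661 and 890 in WT and 836, 732, 762 and 757 in Ad/NICD. The slow sum was thus also highest in WT 4, by 1.29 times the next WT sum. Low signal in 4 of the slow genes limits how far they can fall, but not how far they can rise. The fast genes Casq1, Myoz1, Myh1 and Myh2, at 6.26 to 6.41 in WT 1, were at 9.93, 10.95, 8.06 and 6.21 in WT 4. WT 4 was the highest sample for 13 of 14 fast members and for 1 of 5 slow members, Mybpc1.

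Within partner pairs, the ratio of the fast gene was below that of the slow gene on 4 of 4 arrays in all 5 pairs. All 5 fast genes were themselves lower on 4 of 4 arrays, as were 13.3% of all gene names. Arrays 1 and 3 share near-identical WT samples, so their differences are not independent. The mean difference of the 2 log2 ratios was -2.52 for Tnnc2 minus Tnnc1, -2.49 for Myh4 minus Myh7, -2.41 for Tnnt3 minus Tnnt1, -1.99 for Tnni2 minus Tnni1 and -1.13 for Mybpc2 minus Mybpc1. On array 4 these differences were -4.03, -4.17, -4.06, -4.70 and -2.28. On array 3, the smallest or next to smallest in size in every pair, they were -1.68, -1.16, -1.25, -0.58 and -0.61. The median of the 5 pairs was -2.41, and -1.86 without replicate 4. Low signal limits how far 4 of the slow genes can fall, and their levels lay between 5.97 and 7.92 in every sample. These differences thus compare ratios and not amounts of RNA.

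**Figure D3:**
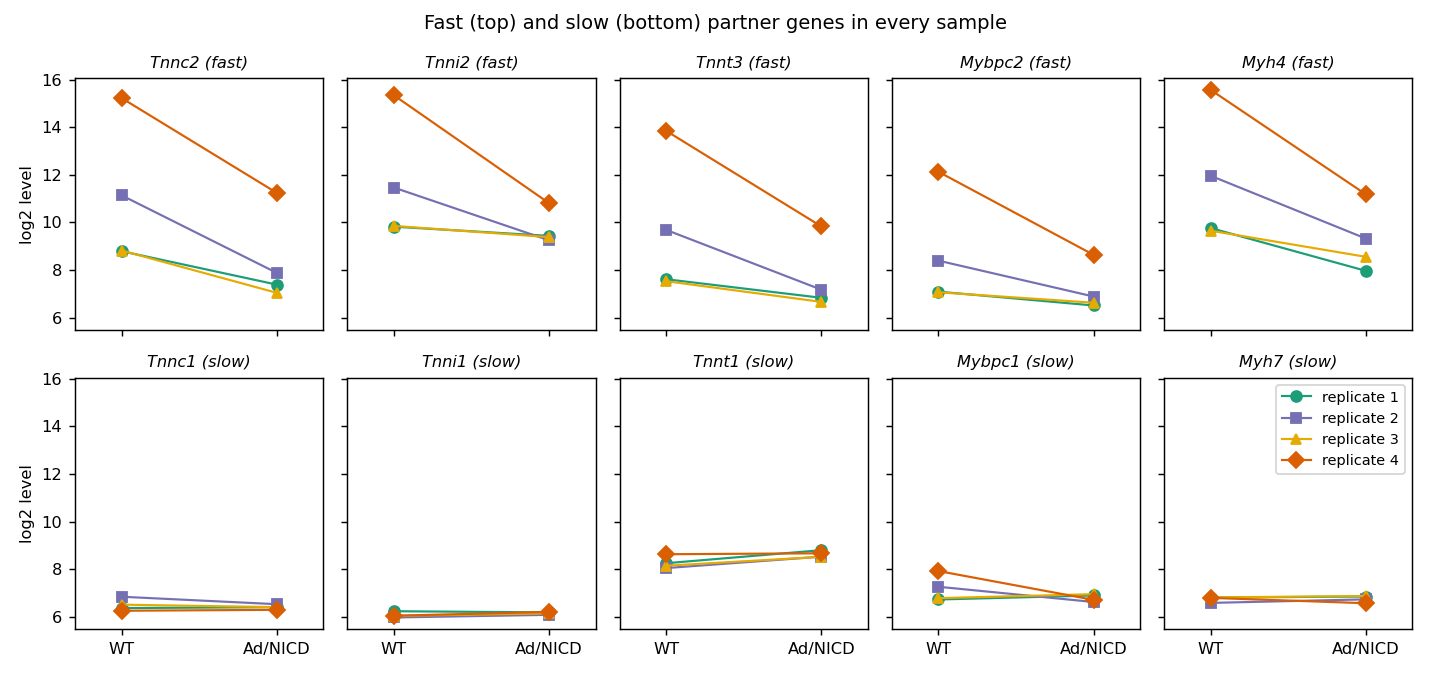
Log2 level (vertical axis) of the 5 fast genes (top row) and their slow partners (bottom row) in WT and Ad/NICD samples, with a line joining the samples of 1 array. The fast genes were highest in WT 4, at 12.13 to 15.58, while 4 of the slow genes stayed below 8 in every sample.

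Other genes of striated muscle, chosen as a wider list, were less uniform. Of 23 further sarcomere genes tested, 13 had a ratio below 0 and 10 above, and none passed the threshold. Among all 25133 gene names, 12980 were below 0 and 12153 above. Myom3, an M-band protein, went the other way from the members, with levels between 8.49 and 8.79 in WT and of at least 9.94 in Ad/NICD. Its groups did not overlap, and the ratio was 1.91 ± 0.22 (adjusted p = 0.109), with 0.011 to 0.453 over the alternatives. Myom2, the M-band protein of fast fibres, followed the members with -1.58 ± 0.57, or -0.90 without replicate 4, and was -3.61 on array 4. Tpm1, a tropomyosin of fast fibres and other cells, had -1.15 ± 0.53, with 14.69 in WT 4, 11.90 in Ad/NICD 4 and 10.64 in WT 2.

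Of all 54 further muscle genes tested, 3 passed when the channels were fitted separately, both without a block, where 1.03% of all gene names passed, and with the array as a random block, where 2% did. Myom3 was higher, and Asph and Tpm2, another tropomyosin, were lower. With WT replicates 1 and 3 counted once, none passed.

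Of 15 further calcium-handling genes tested, 13 had a ratio below 0 and none passed the threshold. Asph, whose products include junctin and an aspartyl hydroxylase found outside muscle, had -1.14 ± 0.15 (adjusted p = 0.114, with 0.0171 to 0.569 over the alternatives). Its groups did not overlap, and it was not led by WT 4, which at 10.96 was the lowest WT sample. Hrc, a calcium-binding protein of the store, had -1.01 ± 0.45, with -2.77 on array 4 and -0.43 without replicate 4. Of 10 further energy genes tested, 7 were below 0 and none passed. The 2 with the largest ratios were Ckmt2, mitochondrial creatine kinase, at -0.83 ± 0.37, and Cox6a2, the muscle form of a respiratory chain subunit, at -0.62 ± 0.55, which was 0.042 without replicate 4. Ckmt2 was -0.37 without replicate 4, -2.28 with processed signals and -3.09 in the authors' value table.

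Genes of early or specialised muscle states were mostly too dim to test. Of 8 satellite cell and myoblast genes, 1 was tested, Cdh15, at -0.11 ± 0.092. Of 7 neuromuscular junction genes, 3 were tested, with Colq at -0.12 ± 0.17 and Rapsn at 0.17 ± 0.12. Besides Myh8, the embryonic and perinatal list had Myl4, an embryonic and atrial light chain, at -0.29 ± 0.074. Further slow fibre genes followed the slow members, with 1 of 6 below 0 and a median of 0.17. The largest ratios among them were those of Myl3, the slow ventricular light chain, at 0.57 ± 0.15 (adjusted p = 0.202), and Atp2a2, the calcium pump of slow fibres and most other cells, at 0.29 ± 0.11.

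Markers of other tissues were read beside the members, and their part in the results was not tested. The 5 cardiac markers tested had a median ratio of -0.014 and summed levels of 429 to 526 in all samples, with Myh6 at 0.21 ± 0.071 and Mybpc3 at 0.10 ± 0.072. They were dim, with Nppb between 6.06 and 6.26 and Mybpc3 between 6.25 and 6.51. Tnni3, the brightest, lay between 6.98 and 7.69. Medians of probes not well above background were 5.92 to 5.96, so the flat cardiac sum is partly background signal. Smooth muscle markers moved in another order: their sum was lowest in WT 4, at 12351 against 33026 to 39899 in the other WT samples, and the largest ratios were those of Cnn1 at -0.64 ± 0.60 and Actg2 at -0.62 ± 0.41. The 5 tendon and fascia genes tested had summed levels of 915 to 1140 in WT and 804 to 974 in Ad/NICD, with WT 4 the lowest WT sample, and Scx, a tendon transcription factor, was at 6.52 in WT 4 against 7.89 to 8.34 in the other WT samples, with a ratio of -0.72 ± 0.28. Fmod, a matrix protein of tendon, had -0.33 ± 0.19. Brown fat markers had their highest sum in WT 2, at 101654, and their lowest in WT 1, at 20254, with Elovl3 at -1.22 ± 0.53 and Dio2 at -1.08 ± 0.55. Of the 10 adipocyte markers, Retn had -1.83 ± 0.39 and Cfd -1.43 ± 0.38, and their sum was lowest in WT 4 among WT samples but highest in Ad/NICD 4 among Ad/NICD samples. The adipocyte median was -0.012 on array 4 and -0.25, -0.75 and -1.03 on arrays 1 to 3.

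Blood and stromal markers had other orders across WT samples, although the endothelial sum was also highest in WT 4, at 19498 against 15770 to 16238. The sum of 5 erythroid genes was 47404 to 64905 in WT, with WT 2 lowest, and 27824 to 57706 in Ad/NICD. Hbb-b1, a beta globin, had -0.88 ± 0.20 and Hbb-bt -0.80 ± 0.21. The 6 endothelial genes were all below 0 on 4 of 4 arrays, against 13.3% of all gene names. Their largest ratios were those of Cldn5 at -1.21 ± 0.14 (adjusted p = 0.114, limma, with 0.0314 to 0.569 over the alternatives) and Robo4 at -0.56 ± 0.11. Macrophage genes had a median of 0.42 and their lowest sum in WT 4, with Mrc1 at 0.65 ± 0.25 and Adgre1 at 0.48 ± 0.32. Mammary epithelium genes, low in both samples of replicate 4 though 4 of 5 were above background there, had a median of -0.51. Krt5 was at -0.94 ± 0.41 and Krt14 at -0.59 ± 0.33.

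**Figure D4:**
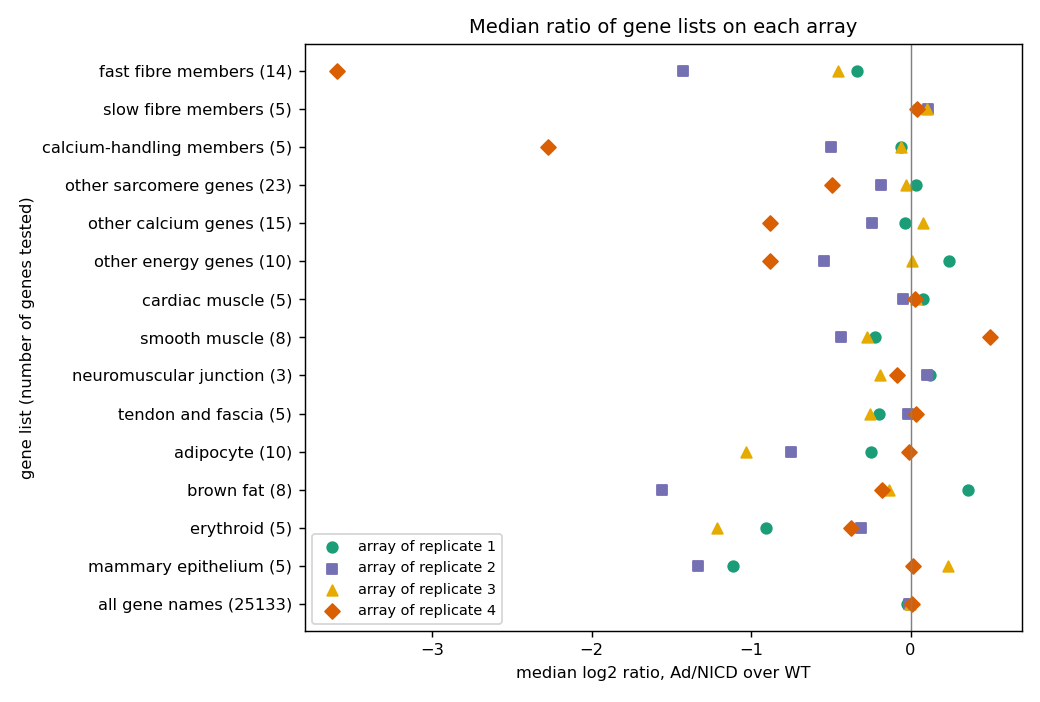
Median log2 ratio of Ad/NICD over WT (horizontal axis) on each of 4 arrays (symbols) for lists of genes (vertical axis), with the number of genes tested in brackets. The fast fibre members spread from -0.33 on array 1 to -3.59 on array 4, while the slow fibre and cardiac lists, both with dim genes, stayed within 0.12 of 0.

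The muscle genes made up much of the low end of array 4. Among its 50 gene names with the lowest ratios, 19 were members and 10 more were on the wider muscle lists. On array 2 the corresponding numbers were 3 and 1, on array 1 they were 1 and 0, and on array 3 both were 0. Members were 34 of the 25133 gene names tested, and the wider muscle lists held 54 more. The 50 lowest of arrays 2 and 4 shared 7 gene names, 3 of them members. Across the 34 members, the ratios on arrays 2 and 4 had a Pearson r of 0.78, those on arrays 1 and 4 one of 0.52, and those on arrays 1 and 3, which share near-identical WT samples, one of 0.83. Genes are not independent replicates. Of the 50 gene names with the widest range of level over the 8 samples, 10 were members.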

How the data were processed

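RNA of 4 WT and 4 Ad/NICD samples of mouse white adipose tissue was hybridised to 4 two-colour Agilent arrays, with 1 sample of each genotype on each array. Agilent Feature Extraction 11.5 is named in the submitters' processing notes. Intensity values per spot, not normalised between arrays, make up the deposited scanner tables, and same-numbered WT and Ad/NICD tables were identical. The authors also deposited log2 values, with each column's 75th percentile at 0 and column medians between -3.82 and -3.51. Its WT columns followed the green channel and its Ad/NICD columns the red one, which sets the likely direction. Its scale and centring were found by comparison with the scanner values.

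Background was corrected with normexp (offset 50) on median signals, because no mean foreground was at hand, followed by loess within each array, in which control spots had weight 0 (R 4.3.3 and limma 3.58.1). Levels per sample are log2 signals of a channel after loess and Aquantile scaling. Of 55681 probes, 28020 matched a RefSeq symbol of GRCm38.p6 and 27661 kept the file's name. A probe entered the test if either channel was well above background on 3 or more of the 4 arrays. Array 1 lacks these flags, and the processed signal over its error stood in for them, which on arrays 2 to 4 matched the scanner's flag for 99.4% to 99.7% of spots. Each gene name was represented by its brightest probe among these. Median foreground was 72 to 88.5 intensity units in green over a background of 45 to 46, and 34 to 43.5 in red over 19 to 20, and having 4 arrays limits precision.

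The 4 log2 ratios per gene were tested against 0 with lmFit and eBayes, Benjamini-Hochberg adjusted over all 25133 gene names, with a threshold of 0.05. SE is that of the moderated fit. The array pairs the samples: same-numbered samples deviated together, with correlations of 0.18, 0.17, 0.56 and 0.53 for replicates 1 to 4. Pairs of other numbers reached 0.28 (WT 1 with Ad/NICD 3) and 0.14 (WT 3 with Ad/NICD 2). P-values measure the spread between these samples, which may be technical. All 36 members are named, with values in every sample for the 5 fast and slow pairs, the calcium-handling genes and the 2 members of each other role with the largest ratios; from other lists the 2 genes with the largest ratios are named, and a few further ones after their values were seen (Tpm1, Tpm2, Heyl and Notch1). Members, lists and rules were chosen with earlier results of these data known, so no count over them is independent support. The 16 alternatives changed background correction, normalisation, filter, probe rule, the block, the source of values and the samples left out or averaged.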

Additional observations from a re-analysis of the deposited data

Results flagged for a closer look

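Of 102 groups of 4 values (the levels of each tested member in either genotype, and its 4 ratios), 21 held a sample whose gap to the nearest other was large for the range of its group by Dixon's criterion, where chance alone flags about 1 in 20 groups. Members share samples, so these are not independent. In WT, replicate 4 was set apart as high for 7 genes: Actn2 at 7.69, Ampd1 at 9.52, Cacna1s at 10.87, Casq1 at 9.93, Eno3 at 13.68, Ryr1 at 9.21 and Smpx at 7.68. In Ad/NICD, replicate 4 was set apart as high for 8 genes: Acta1 at 9.70, Casq1 at 7.27, Ckm at 7.45, Pgam2 at 8.09, Pvalb at 10.73, Tcap at 7.93, Tnni2 at 10.81 and Tnnt3 at 9.83. The log2 ratio of replicate 4 was set apart as low for 4 genes: Actn2 at -0.86, Casq1 at -2.66, Eno3 at -2.60 and Smpx at -1.55. The remaining 2 were low samples of other replicates, Myh7 at 6.58 in WT 2 and Ryr1 at 6.85 in Ad/NICD 1. Replicate 4 accounted for 19 of the 21, and both of its samples also lacked Xist signal and had low mammary epithelium signal. The part of this in the muscle values was not tested.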

How the results depend on the processing

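No member passed the threshold in the main setting or in any of the 16 alternatives; the smallest adjusted p of a member (limma) ranged from 0.0505 to 0.569 over them. Of 538 member values under alternatives, 523 kept their direction and 15 reversed, in 9 members. Reversed were Myh7 (-0.15 with median centring, -0.00011 in the authors' value table, and -0.040 to 0.084 leaving out 1 replicate), Tnnt1 (-0.085 with median centring), Myh2 (-0.28 to 0.064), Actn2 (-0.28 to 0.039) and Ampd1 (-0.64 to 0.071) leaving out 1 replicate, and, without replicates 2 and 4, Actn2 (0.070), Neb (0.24), Mybpc1 (0.17), Smpx (0.0034), Ampd1 (0.080) and Pygm (0.13). The slow median of 0.0071 became -0.12 with median centring and -0.039 with probes above background in both channels on all arrays, 0.052 without replicates 2 and 4, and -0.011 to 0.055 leaving out 1 replicate. Leaving out 1 replicate moved the member median from -1.05 to -0.30, the fast median from -1.79 to -0.70 and the pair median from -2.80 to -1.86, in each case nearest 0 without replicate 4; without replicates 2 and 4 they were -0.19, -0.32 and -1.29. With processed signals and in the authors' value table the fast median was -2.01 and -2.03, and the member median -1.20 and -1.22. The 12 gene names called became 0 with median centring, no filter on dim probes or trend and robust eBayes, 3 in the authors' value table, 23 without replicates 2 and 4, and 0 to 42 leaving out 1 replicate. With channels fitted separately they were 259 with no replicate block and 503 with the array as a random replicate block (consensus correlation 0.16), with 0 members in each. Leaving out replicates 2 and 4, and averaging WT replicates 1 and 3 (11 called, 0 members), were chosen after seeing the data. The causes were not tested. Signal near background limits Tnni1, Tnnc1, Smpx, Myot and Xirp2, 2 Ad/NICD arrays for Ckm, and the ratios of members such as Ckm and Casq1 on arrays 1 and 3.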

Other observations

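Outside every list, the 5 gene names with the lowest ratios on array 4 were Kctd10, Gdpd3, Hal, Wfdc21 and Ppp1r27. Kctd10, a ubiquitin ligase adaptor, was at 12.93 in WT 4 against 7.92 to 8.11 in the other WT samples and 8.88 in Ad/NICD 4, and on array 2 its ratio was 0.12. Ppp1r27, a regulatory subunit of protein phosphatase 1, was at 9.59 in WT 4 against 6.96 to 7.22 in the other WT samples. Gdpd3 was high in WT 4, at 11.04, and in Ad/NICD 2 and 3, at 10.65 and 10.26, and at most 7.38 in the other 5 samples. Wfdc21 was lower in Ad/NICD on every array, with a ratio of -3.00 ± 0.24 (SE, n = 4 arrays; adjusted p = 0.0571, limma), and Hal was low in Ad/NICD 2 and 4, at 6.44 and 6.49, against 9.98 and 10.06 in Ad/NICD 3 and 1.

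The lowest ratio outside the lists was that of Mup20 on array 2 and of Mup5 on array 3, both major urinary protein genes, and on array 1 that of Nob1, at -4.19, with Mup20 next. Mup20 had -3.54, -4.72, -3.69 and -1.11 on arrays 1 to 4, and Mup1, Mup3 and Mup5 had mean ratios of -3.34, -2.99 and -3.31. These 4 were thus least different on array 4, where the muscle members differed most, and near-identical copies of the family share probe signal. Fgg and Slc27a2, on array 2, were at -4.45 and -4.42.

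Among the genes with the widest range over the 8 samples, some were high in both samples of 1 array. Sorcs1 was at 15.00 and 12.77, and Nsl1 at 14.45 and 12.68, in WT 4 and Ad/NICD 4, and both were at most 6.67 elsewhere. Frmd5 was at 14.67 and 13.42, and Agxt2 at 13.78 and 12.96, in WT 1 and Ad/NICD 1. WT 3, near-identical to WT 1 over the other bright genes, had Frmd5 at 6.13 and Agxt2 at 6.45. Wfdc18 was at 6.31 and 6.63 in the samples of replicate 4 and between 10.98 and 14.33 in the rest.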
